A study of Rattus norvegicus with 28 samples.

Results

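The immediate early genes described here are 10 genes whose transcription follows neuronal activity: Fos, Fosb, Fosl1, Jun and Junb, which encode subunits of the AP-1 transcription factor, Egr1 and Egr2, Npas4, Nr4a1 and Arc. They were chosen by name, as the probes of a rat gene expression array whose accession belongs to one of these symbols, and each had 1 probe among the 15631 genes that could be named. Hippocampal RNA of 14 adult male Sprague-Dawley rats was measured 24 h after sham injury or fluid-percussion traumatic brain injury (TBI), a model in which a fluid pulse strikes the exposed dura. Sham comprised 2 rats that were prepared for injury and not injured. TBI comprised 3 injured rats with no drug named in the labels, and TBI+Imipramine, TBI+Prozac and TBI+Zoloft each comprised 3 injured rats that received the antidepressant 1 h after injury, per the study's methods at the same dose. Imipramine is a tricyclic antidepressant, and Prozac (fluoxetine) and Zoloft (sertraline) are selective serotonin reuptake inhibitors of different chemical scaffolds. All rats were of a single strain and sex and were sampled at a single time, whole hippocampus was used, and the labels name no vehicle for the TBI group.

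Immediate early genes are switched on within minutes of calcium entry or growth factor signalling, without new protein synthesis, and most of their transcripts decay within hours. Calcium- and cAMP-dependent kinases phosphorylate CREB, which binds cAMP response elements, and the ERK pathway acts on serum response factor and its Elk partners at CArG boxes. Fos and Jun proteins pair as AP-1, Egr proteins and Npas4 activate synaptic genes, Nr4a1 is an orphan nuclear receptor, and Arc protein works at the synapse, where it drives removal of AMPA receptors. In the hippocampus Arc and Fos serve as markers of recently active neurons. In injured tissue AP-1 genes are also known to be induced in glia and leukocytes.

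Promoter sequence is shown for 3 members that carry the results: Fosl1, which rose after injury, Nr4a1, which fell, and Egr2, which was far above its usual level in 1 rat. The lines give the 250 bases before the annotated start from RefSeq, assembly GRCr8, 5′ to 3′ on the strand of the gene, and capitals mark matches to the motifs searched on both strands. These were the CArG box, the full cAMP response element, its core TGACG, the AP-1 heptamer TGANTCA and the EGR site GCGNGGGCG, and a full element contains the core. Fosl1 lies at chr1:212183635-212183884, plus strand, Nr4a1 at chr7:134259888-134260137, plus strand, and Egr2 at chr20:21054442-21054691, minus strand.
Fosl1: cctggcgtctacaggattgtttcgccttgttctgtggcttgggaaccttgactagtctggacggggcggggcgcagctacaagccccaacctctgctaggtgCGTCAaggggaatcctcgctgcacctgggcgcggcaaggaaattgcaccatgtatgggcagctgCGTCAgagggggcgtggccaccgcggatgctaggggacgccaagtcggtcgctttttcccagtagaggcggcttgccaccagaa
Nr4a1: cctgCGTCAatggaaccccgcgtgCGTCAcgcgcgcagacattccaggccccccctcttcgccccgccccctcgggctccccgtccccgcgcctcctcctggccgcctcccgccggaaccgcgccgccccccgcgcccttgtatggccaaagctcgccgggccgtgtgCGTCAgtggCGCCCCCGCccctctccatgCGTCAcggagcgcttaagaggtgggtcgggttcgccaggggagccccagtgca
Egr2: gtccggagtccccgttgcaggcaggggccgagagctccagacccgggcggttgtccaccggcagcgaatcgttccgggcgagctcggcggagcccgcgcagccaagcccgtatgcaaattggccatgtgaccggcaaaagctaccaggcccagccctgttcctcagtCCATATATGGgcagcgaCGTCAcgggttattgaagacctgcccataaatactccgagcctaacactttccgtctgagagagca
The Nr4a1 window held 4 cAMP response element cores, of which 1 began 53 bases and another 82 bases before the start, and 1 EGR site. The Fosl1 window held 2 cores. Egr2 held 1 CArG box, beginning 83 bases before the start, and 1 core, and Egr1 held 2 CArG boxes and 2 cores. Junb held 1 core, and the windows of Fosb and Npas4 held none of these letters. Among all 33469 promoters of the same length, 18.2% held a cAMP response element core, 1.5% a CArG box, 4.29% an EGR site, 1.59% a full element and 6.34% the AP-1 heptamer. A match is a description of the sequence and was not tested as a binding site.

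Levels below are log2 values scaled to the 75th percentile among each array's detected probes, so that 0 is a bright probe and a step of 1 is a doubling. A probe was tested where all arrays of some group detected it above background, which held for 17322 of 30367 probes and for 7 of the 10 members. Between 14676 and 18196 probes were above background per array, with the fewest on TBI replicate 1. That array had the lowest level of 6358 of 17251 kept probes, of 23 of the 67 other pathway genes and of 2 of the 10 members. It is 1 of the 3 TBI arrays in every comparison with TBI. Slide 1 carried the 3 TBI arrays and TBI+Prozac replicate 1, slide 2 the other 8 drug arrays and slide 3 both Sham arrays, which were scanned on another day, so that injury and slide cannot be told apart in any comparison with Sham. Of the tissue's markers, 8 of 9 neuron genes and 9 of 12 hippocampal genes passed the filter, while the hippocampal genes Prox1, Ocm and Lefty1 were too dim. The summed level of the 3 measured choroid plexus markers, which mark tissue next to the hippocampus, ranged from 0.592 to 29.2 in Sham, 0.669 to 28.7 in TBI, 1.79 to 105 in TBI+Imipramine, 0.204 to 87.8 in TBI+Prozac and 1.77 to 101 in TBI+Zoloft, and its part in the results was not tested. A pair of arrays stood apart in the members themselves: TBI+Zoloft replicate 3 had the highest level of 8 of the 10 members, and TBI+Prozac replicate 1 had the highest level of Npas4. Values without them are given beside the results that they move most.

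**Figure D1:**
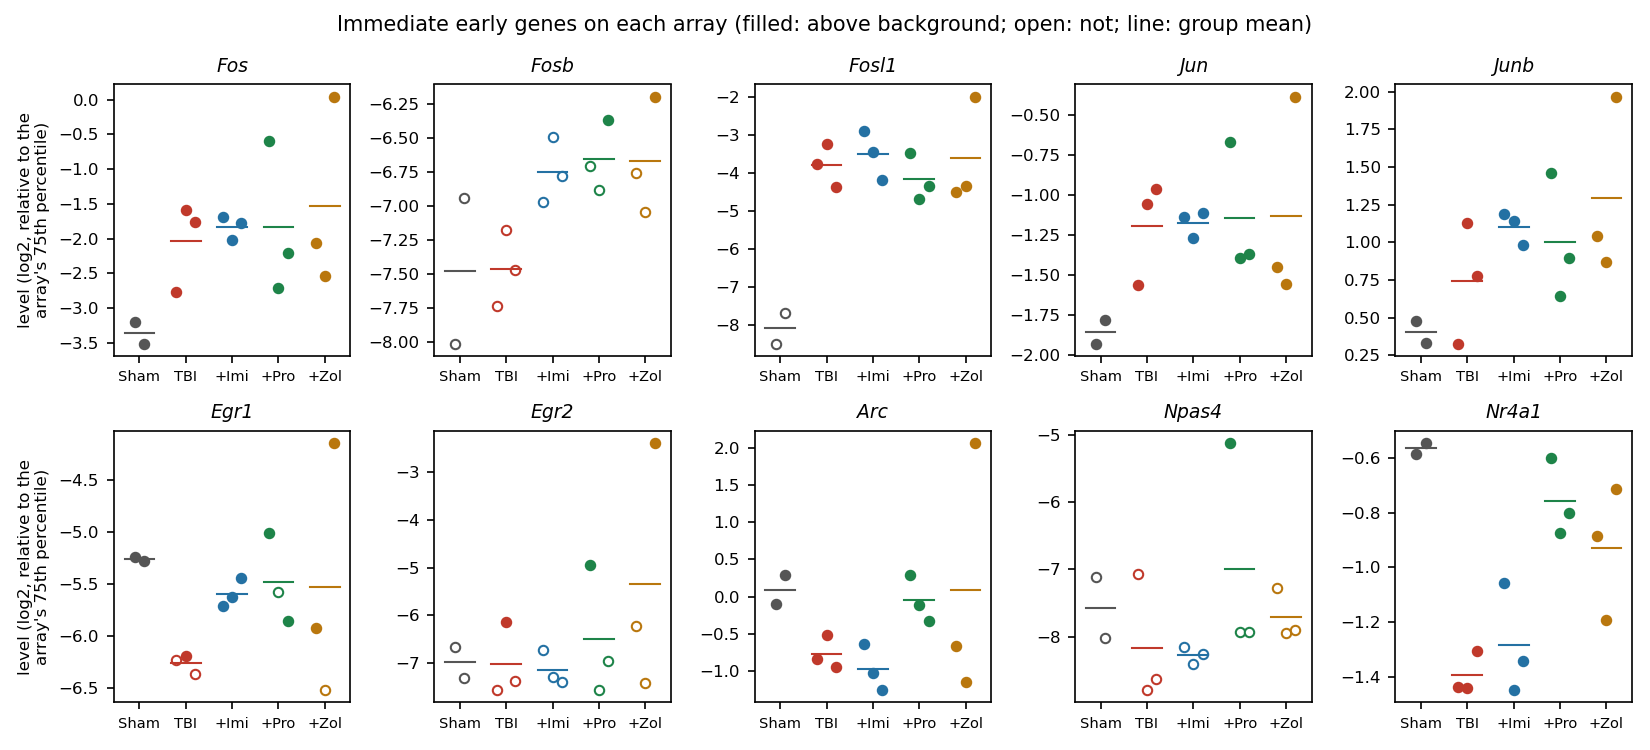
Level of each of the 10 immediate early genes (y axis, log2 relative to the array's 75th percentile; the axes differ between panels) on the 14 arrays, grouped on the x axis as Sham, TBI and TBI with imipramine (+Imi), Prozac (+Pro) or Zoloft (+Zol). Filled points are above background, open points are not, and lines are group means. TBI+Zoloft replicate 3 is the highest point for 8 genes. Sham lies below all injured rats for Fos, Fosl1 and Jun (as for 12.1% of all probes) and above all of them for Nr4a1 (7.59%).

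Fosl1 was higher and Nr4a1 lower after injury, and Fosl1 passed the filter only through the injured groups. In TBI against Sham, 2 of the 7 measured members passed the test, where 16.6% of all tested probes did, and 4 of the 7 were higher and 3 lower in mean. The median difference of the 7 members was 0.34, against 0.00 over all probes. The AP-1 members Fos, Fosl1, Jun and Junb had higher means after injury, while Egr1, Arc and Nr4a1 had lower means. TBI and Sham arrays did not overlap for 6 of the 7 members, against 42.3% of all probes, and Junb was the exception.

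Fosl1 encodes Fra-1, a late and long-lived Fos family protein. Its levels were -8.50 and -7.68 on the Sham arrays, neither above background, so that Fosl1 passed the filter only through the injured groups. Its rise over Sham, and its place in the counts of called members, are thus partly set by the filter. The TBI arrays gave -3.77, -3.25 and -4.37, TBI+Imipramine -2.89, -3.45 and -4.17, TBI+Prozac -3.46, -4.68 and -4.34, and TBI+Zoloft -4.49, -4.34 and -1.99, all above background. Every injured rat thus lay far above both Sham rats, a pattern that 12.1% of all probes shared. For folds Sham was set per array at the dimmest signal of any probe counted as above background, or at the measured level where higher. Against this reference Fosl1 was 5.91-fold higher in TBI (limma, adjusted p = 0.00157) and 7.23-fold in TBI+Imipramine (adjusted p = 0.000794). It was 4.59-fold higher in TBI+Prozac (adjusted p = 0.00391) and 6.73-fold in TBI+Zoloft (adjusted p = 0.00317). The p-values belong to the measured differences. An undetected probe can lie above this reference, and the normexp differences below are smaller, so these folds are not strict minima. The measured log2 differences were 4.30, 4.59, 3.93 and 4.48, each with an SE of 0.67. With the normexp background correction, which compresses dim signals, the differences were 1.0, 1.31, 0.79 and 1.49, and the call remained in TBI+Imipramine alone (adjusted p = 0.0387; over all alternatives 0.000101 to 0.0531, and in TBI 0.000134 to 0.173). Without TBI+Zoloft replicate 3 the TBI+Zoloft difference was 3.68 (adjusted p = 0.00288; over all alternatives 0.00173 to 0.31).

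Fos, the first AP-1 gene to respond to activity, gave -3.20 and -3.51 in Sham and -2.77, -1.58 and -1.77 in TBI. TBI+Imipramine gave -1.69, -2.02 and -1.78, TBI+Prozac -0.59, -2.71 and -2.21, and TBI+Zoloft -2.07, -2.54 and 0.04. All 12 injured rats lay above both Sham rats, a pattern shared by 12.1% of all probes. The levels of injured rats spanned more than 2 log2 units, and no comparison passed the test. The difference was 1.32 ± 0.71 (SE) in TBI (adjusted p = 0.231), 1.53 in TBI+Imipramine (adjusted p = 0.139), 1.52 in TBI+Prozac (adjusted p = 0.172) and 1.83 in TBI+Zoloft (adjusted p = 0.149). Without TBI+Prozac replicate 1 the TBI+Prozac difference was 0.90, and without TBI+Zoloft replicate 3 the TBI+Zoloft difference was 1.05. Over all alternatives adjusted p ran from 0.0191 to 0.518 in TBI and from 0.00557 to 0.381 in TBI+Imipramine. Fos passed in TBI when both arrays were left out. These arrays were singled out after the data were seen, by levels that include those of Fos, so that call is no independent support.

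Jun, the usual partner of Fos, also lay higher after injury, on a smaller scale. Sham gave -1.93 and -1.78, TBI -1.56, -1.06 and -0.97, TBI+Imipramine -1.14, -1.27 and -1.12, TBI+Prozac -0.67, -1.40 and -1.37, and TBI+Zoloft -1.45, -1.55 and -0.39. All 12 injured rats again lay above both Sham rats, as for 12.1% of all probes. The differences from Sham were between 0.66 and 0.72, with adjusted p between 0.15 and 0.212, and none passed the test. Junb, which encodes a partner that restrains Jun, gave 0.48 and 0.34 in Sham, 0.33, 1.13 and 0.78 in TBI, and between 0.65 and 1.96 in the 9 drug-treated rats. It was above both Sham rats in 11 of 12 injured rats, and TBI replicate 1 was the exception. The share of all probes with such a count was not taken. Its largest difference from Sham, 0.89 in TBI+Zoloft, had an adjusted p of 0.13 and was 0.55 without replicate 3. The Jun difference in TBI+Zoloft was 0.35 without that array. Across the 12 injured rats Fos followed Jun (r = 0.97) and Junb (r = 0.92), and Fosl1 less closely (r = 0.75). Without TBI+Zoloft replicate 3 these values were 0.93, 0.85 and 0.51. Among the 8 arrays of slide 2, which include TBI+Zoloft replicate 3, they were 0.97, 0.98 and 0.89. These correlations are a description, and the rats share slides and groups.

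Nr4a1, the nuclear receptor Nur77, had an SD of at most 0.24 in every group. Sham gave -0.58 and -0.55, TBI -1.44, -1.44 and -1.30, TBI+Imipramine -1.06, -1.45 and -1.34, TBI+Prozac -0.60, -0.88 and -0.80, and TBI+Zoloft -0.89, -1.19 and -0.71. All 12 injured rats lay below both Sham rats, a pattern shared by 7.59% of all probes. Nr4a1 fell by 0.83 on the log2 scale in TBI (SE 0.17, adjusted p = 0.00603) and by 0.72 in TBI+Imipramine (adjusted p = 0.00935). It was 0.19 lower than Sham in TBI+Prozac (adjusted p = 0.475) and 0.36 lower in TBI+Zoloft (adjusted p = 0.218), which did not pass the test. In the order of group means Sham at -0.57 was followed by TBI+Prozac at -0.76, TBI+Zoloft at -0.93, TBI+Imipramine at -1.28 and TBI at -1.39. No neighbours in this order differed beyond the test. The call in TBI+Imipramine was lost without Sham replicate 1 (adjusted p = 0.0528) or Sham replicate 2 (adjusted p = 0.0639). Over all alternatives adjusted p ran from 0.00144 to 0.0854 in TBI+Imipramine and from 0.00257 to 0.147 in TBI.

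Egr1 and Arc lay lower in the TBI rats without passing the test on all arrays. Egr1, a zinc finger factor induced by synaptic plasticity, gave -5.24 and -5.28 in Sham and -6.23, -6.19 and -6.36 in TBI, of which 1 of 3 arrays was above background. Arc gave -0.11 and 0.29 in Sham and -0.84, -0.52 and -0.94 in TBI. The groups did not overlap for either gene, as for 42.3% of all probes. The differences were -1.0 (SE 0.50, adjusted p = 0.194) for Egr1 and -0.86 (SE 0.68, adjusted p = 0.424) for Arc. The spread in the fit is shared by all groups and TBI+Zoloft replicate 3 widened it. Without that array the SE dropped to 0.23 for Egr1 and 0.25 for Arc, and both then passed the test in TBI against Sham (adjusted p = 0.013 and 0.0326). The array was singled out after the data were seen, by levels that include those of Egr1 and Arc, so these calls are no independent support. Without it the count of members past the threshold was 4 of 7, namely Fosl1, Nr4a1, Egr1 and Arc, where 18.8% of all probes were called. Leaving out any 1 array gave counts of 2 to 4. In TBI+Imipramine against Sham it was 4 of 7 as well, against 25.6% of all probes, with Arc 1.07 lower (adjusted p = 0.00964, over all alternatives 0.00798 to 0.576) and Jun 0.68 higher (adjusted p = 0.0491, 0.0148 to 0.384). Over all alternatives adjusted p in TBI against Sham ran from 0.00445 to 0.408 for Egr1 and from 0.0266 to 0.726 for Arc.

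**Figure D2:**
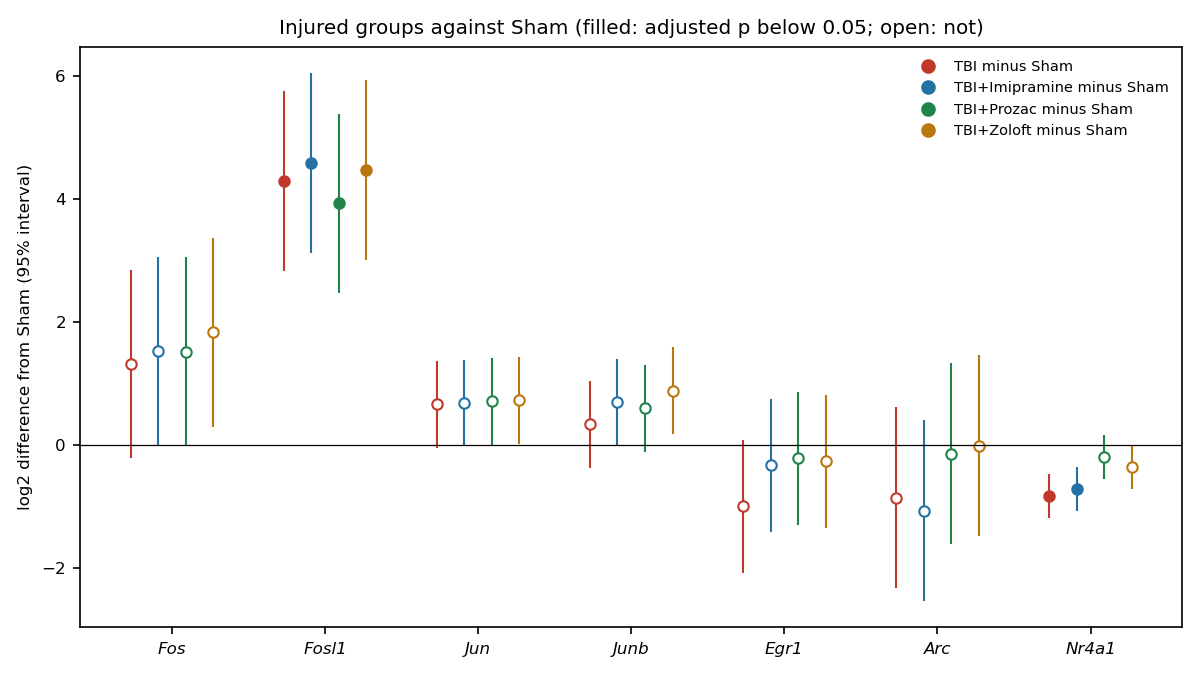
Difference of each injured group from Sham (y axis, log2, with 95% intervals from the limma fit) for the 7 measured members (x axis). Filled points passed an adjusted p of 0.05 and open points did not: Fosl1 passed in all 4 groups at 3.93 to 4.59 and Nr4a1 in TBI at -0.83 and TBI+Imipramine at -0.72. Fosl1 was above background on no Sham array, so that its differences rest on undetected Sham levels and are partly set by the filter.

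With all arrays, 2 of 7 members passed the test in TBI+Imipramine against Sham (Fosl1 and Nr4a1; 23.4% of all probes were called), 1 of 7 in TBI+Prozac (Fosl1; 14.9%) and 1 of 7 in TBI+Zoloft (Fosl1; 5.95%). The 4 comparisons share the Sham arrays. Some markers of cells that enter or react in injured tissue were also higher in TBI than in Sham. In TBI against Sham 3 of 8 microglia and macrophage markers rose, Itgam by 1.05, Cd68 by 1.67 and Ptprc by 1.55, as did the neutrophil genes S100a8 by 3.33 and S100a9 by 4.0 and the astrocyte gene Gfap by 1.88. Whole lists did not follow these genes: 6 of 8 microglia and macrophage markers were higher in mean (median 0.66), but 2 of 7 blood and neutrophil markers (median -0.14) and 2 of 7 astrocyte markers (median -0.24). The summed level of the 8 microglia and macrophage markers ranged from 3.29 to 4.15 in Sham, 5.2 to 5.83 in TBI, 5.85 to 6.98 in TBI+Imipramine, 4.77 to 7.32 in TBI+Prozac and 4.08 to 5.67 in TBI+Zoloft, and none of the 8 was below background throughout. That of the 7 blood and neutrophil markers ranged from 45.8 to 60.7 in Sham and from 42.7 to 52.9 in TBI, 41.7 to 83.1 in TBI+Imipramine, 39.2 to 66.4 in TBI+Prozac and 54.2 to 95.4 in TBI+Zoloft. Their part in the result was not tested. TBI+Zoloft replicate 3, with the highest Fosl1, had a microglia and macrophage sum of 4.08, the lowest of the injured rats. In whole tissue, more cells of a type and more RNA per cell cannot be told apart. Of the neuron genes Syt1 was 0.67 lower in TBI (adjusted p = 0.0293) and the other 7 did not pass the test.

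Among the other genes of the pathway, calls in TBI against Sham were most frequent in the list of AP-1 and bZIP partners. The lists were chosen with earlier results of these data known. Of 67 measured genes in lists of AP-1 partners, other immediate early factors, activity-induced effectors, feedback inhibitors and upstream kinases, 7 rose and none fell in TBI against Sham, or 10.4%, where 8.3% of all probes were called higher. In mean 39 of the 67 were higher and 28 lower, with a median difference of 0.15. Among AP-1 and bZIP partners 4 of 7 rose (list median 2.29, all probes 0.00), and these were Atf3, Maff, Batf and Batf3. Of these, Maff, Batf and Batf3 passed the filter only through injured groups, so that their rise over Sham is partly set by the filter. Atf3, a stress-induced repressor, gave -5.23 and -4.99 in Sham and -2.67, -1.87 and -2.45 in TBI, a difference of 2.78 (adjusted p = 0.00263). Batf and Batf3, which pair with Jun and are best known from leukocytes, were above background on no Sham array and on all 3 TBI arrays. Against the Sham reference used for Fosl1 they were 3.33-fold (adjusted p = 0.000374) and 3.51-fold (adjusted p = 0.000352) higher, which are not strict minima. Maff, a small Maf protein, was above background on 2 of 3 TBI arrays and on neither Sham array (adjusted p = 0.0107). The remaining 3 were Gadd45g, a growth arrest gene, at 1.88 (adjusted p = 0.0474), Myc at 1.17 (adjusted p = 0.0395) and Elk1, the ERK target that works with serum response factor, at 0.64 (adjusted p = 0.0475). By list, 2 of 16 other immediate early factors rose, 1 of 19 effectors, 0 of 8 feedback inhibitors and 1 of 19 upstream kinases and factors, with Maff counted in 2 lists. The 4 AP-1 and bZIP partners passed the test in all 4 injured groups against Sham.

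In TBI+Imipramine against Sham 13 of 67 pathway genes rose and none fell, or 19.4%, where 19.8% of all probes were called higher. They were led by Atf3 at 2.99 and Gadd45g at 2.19. Against the same Sham reference Batf was 5.72-fold, Batf3 5.47-fold and Maff 2.16-fold higher. All probes together were shifted by 0.18 in that comparison, so that small differences there are relative to this shift. In TBI+Prozac 6 rose, or 8.96% against 11.7% of all probes, among them Atf3 at 2.56, Myc at 1.17, Batf3, Batf and Maff. Batf3 and Batf were 4.15-fold and 3.09-fold above the Sham reference, and Maff was above background on 2 of 3 arrays. In TBI+Zoloft 5 rose, or 7.46% against 4.16% of all probes, namely Atf3 at 2.56, Myc at 1.31, Batf3, Batf and Maff. Batf3 and Batf were 3.33-fold and 2.94-fold above the Sham reference. Maff was above background on 1 of 3 arrays, and no fold is given for it. Without TBI+Zoloft replicate 3 the TBI+Zoloft difference was 2.00 for Atf3 (adjusted p = 0.0122), and Myc no longer passed the test (0.95, adjusted p = 0.0941). Without TBI+Prozac replicate 1 the TBI+Prozac difference was 2.24 for Atf3 (adjusted p = 0.022), and Maff (adjusted p = 0.0518) and Myc (0.92, adjusted p = 0.144) no longer passed. The counts of genes that rose were then 4 in TBI+Zoloft and 3 in TBI+Prozac, and 1 gene, the neuronal pentraxin Nptx1, fell by 0.74 in TBI+Zoloft (adjusted p = 0.0297, against -0.61 and 0.0599 with all arrays).

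**Figure D3:**
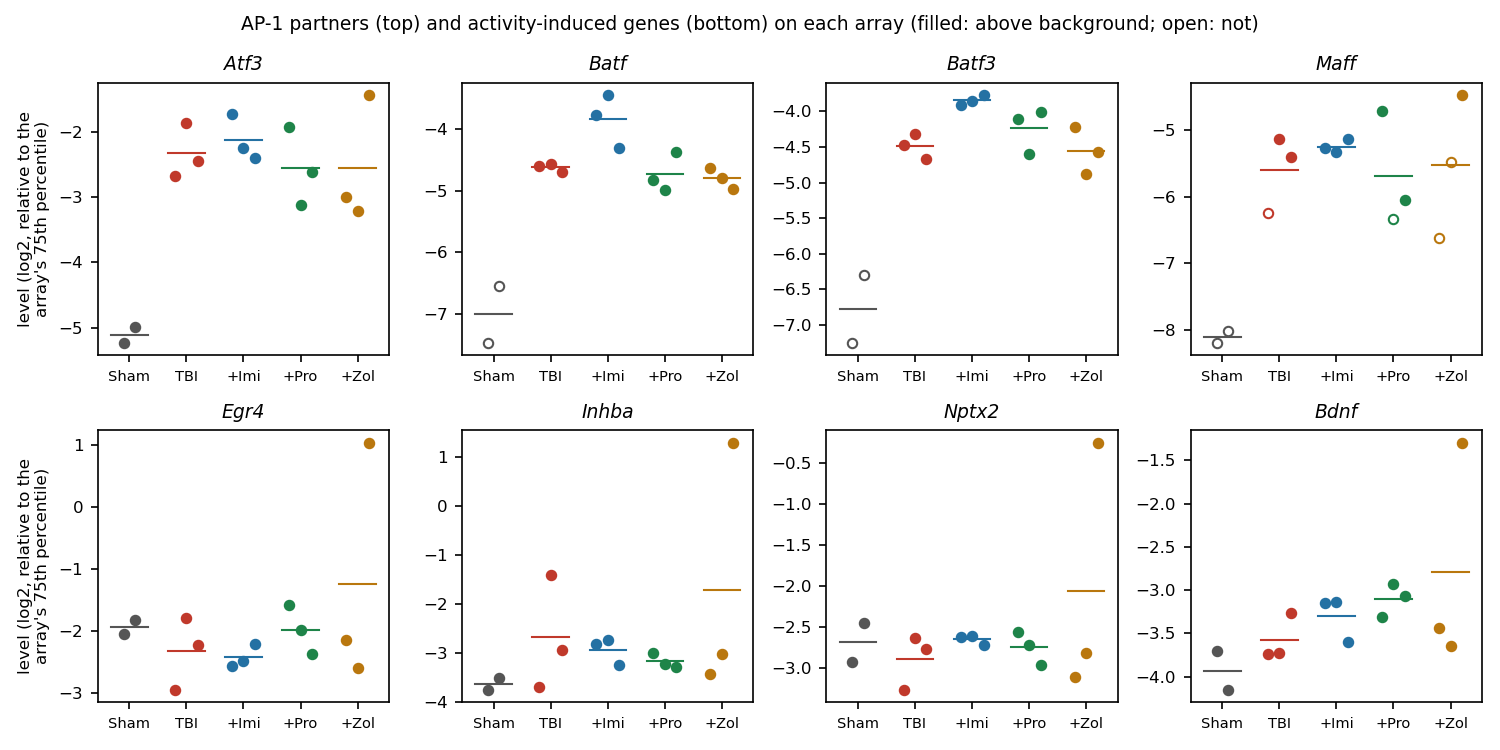
Levels (y axis, log2 relative to the array's 75th percentile; axes differ) of 4 AP-1 partners in the top row and 4 activity-induced genes in the bottom row on the 14 arrays (x axis, groups as Sham, TBI, +Imi, +Pro and +Zol; lines are group means, filled points are above background). Atf3, Batf, Batf3 and Maff, shown because they passed the test, separate Sham from every injured rat, as do 12.1% of all probes in this direction. Batf, Batf3 and Maff passed the filter only through injured groups. Egr4, Inhba, Nptx2 and Bdnf are highest on TBI+Zoloft replicate 3 and were picked by their gaps there.

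No measured member passed the test when an antidepressant group was set against TBI. In the limma test 0 of 7 passed in TBI+Imipramine against TBI (2.85% of all probes were called), 0 of 7 in TBI+Prozac (0.00577%) and 0 of 7 in TBI+Zoloft (1.38%). At an unadjusted p below 0.05 the counts were 0, 1 and 1, where 3417, 1742 and 2635 of all 17322 probes lay below it. The methods' t-test with its fold limit and no adjustment gave 1, 3 and 1, and its count over all probes is not given here. The 1 gene at an unadjusted limma p below 0.05 was Nr4a1 in both cases. Its TBI+Prozac rats, at -0.60, -0.88 and -0.80, and its TBI+Zoloft rats, at -0.89, -1.19 and -0.71, all lay above the 3 TBI rats. The difference was 0.63 in TBI+Prozac (95% interval 0.31 to 0.96, adjusted p = 0.23) and 0.46 in TBI+Zoloft (0.14 to 0.78, adjusted p = 0.146). In TBI+Imipramine it was 0.11 (-0.21 to 0.43, adjusted p = 0.695), and -0.11 with quantile normalization. TBI and the drug group did not overlap for 3 of 7 members in TBI+Prozac (15.2% of all probes), 1 in TBI+Zoloft (15.4%) and 1 in TBI+Imipramine (25.8%). All probes were shifted by 0.15 in TBI+Prozac, 0.20 in TBI+Imipramine and 0.01 in TBI+Zoloft, and with quantile normalization the Nr4a1 difference was 0.48 in TBI+Prozac and 0.44 in TBI+Zoloft.

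Arc gave 0.29, -0.12 and -0.33 in TBI+Prozac, all above the 3 TBI rats, and the difference of 0.72 did not pass the test (95% interval -0.60 to 2.03, adjusted p = 0.722). TBI+Imipramine gave -0.64, -1.03 and -1.26, a difference of -0.21 (adjusted p = 0.865). TBI+Zoloft gave -0.67, -1.15 and 2.07, so that 1 rat set the group mean. The difference was 0.85 with that rat and -0.14 without it (adjusted p = 0.555 and 0.876; over all alternatives 0.277 to 0.998). Egr1 gave -5.71, -5.63 and -5.44 in TBI+Imipramine, all above background and above the TBI rats, with a difference of 0.67 (95% interval -0.30 to 1.63, adjusted p = 0.417). It gave -5.01, -5.58 and -5.85 in TBI+Prozac, with a difference of 0.78 (adjusted p = 0.58), and -5.92, -6.52 and -4.15 in TBI+Zoloft, where the difference of 0.73 became 0.04 without replicate 3.

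The TBI arrays share a slide with TBI+Prozac replicate 1 alone. On that slide this rat lay 0.79 above the TBI mean in Nr4a1, 1.06 in Arc and 1.26 in Egr1, while the TBI+Prozac rats of the other slide lay 0.55, 0.54 and 0.55 above it. With slide as a block the TBI+Prozac differences equalled those of the shared slide, with adjusted p of 0.555, 0.948 and 0.888, and over all alternatives adjusted p ran from 0.17 to 0.605, 0.297 to 0.955 and 0.241 to 0.932. With the block the Fos difference in TBI+Imipramine went from 0.21 to 2.08 and in TBI+Zoloft from 0.52 to 2.38, and neither passed the test (adjusted p over all alternatives 0.687 to 0.996 and 0.517 to 0.998). This change comes from TBI+Prozac replicate 1 alone, at -0.59 in Fos, against a TBI+Prozac mean of -2.46 on the other slide. All TBI+Imipramine and TBI+Zoloft arrays lie on another slide than TBI, so that drug and slide cannot be told apart there.

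**Figure D4:**
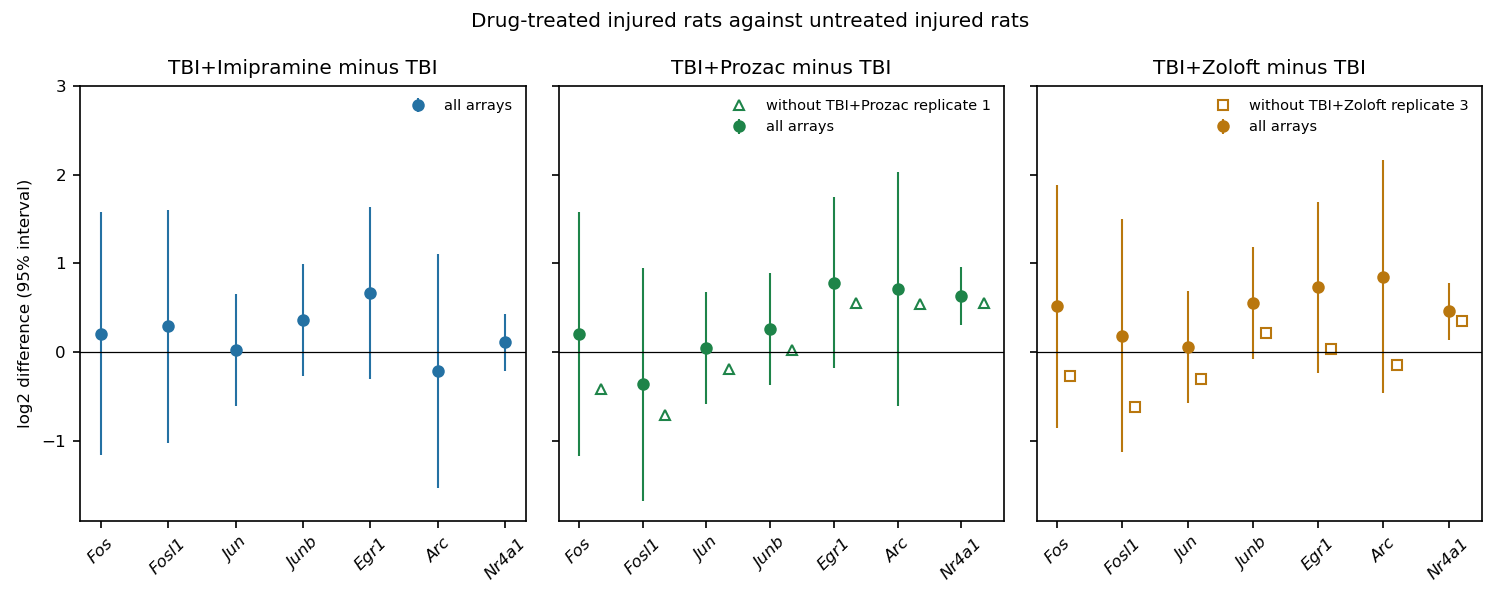
Difference of each drug group from TBI (y axis, log2) for the 7 measured members (x axis), filled with 95% intervals for all arrays and open without the array that stood apart in that group. The Zoloft differences of Fos, Fosl1, Jun and Arc fall below 0 without TBI+Zoloft replicate 3, and Nr4a1 stays above 0 in the Prozac and Zoloft panels.

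The 3 drugs were given at the same dose and time, and the 3 pairs of drugs were compared directly. No member passed the test in TBI+Imipramine against TBI+Prozac (0.00577% of all probes were called), in TBI+Imipramine against TBI+Zoloft (5.29%) or in TBI+Prozac against TBI+Zoloft (3.69%), nor in the F test over the 3 drugs (3.18%). At an unadjusted p below 0.05 there was 1 member in each of the first 2 pairs and in the F test, always Nr4a1, and 0 in the third pair. Of all 17322 probes, 1197, 4096 and 3640 lay below that limit in the 3 pairs. Nr4a1 was 0.52 lower with the tricyclic imipramine than with Prozac (95% interval -0.85 to -0.20, adjusted p = 0.72) and 0.35 lower than with Zoloft (-0.68 to -0.03, adjusted p = 0.17), and the F test gave an adjusted p of 0.114. Prozac and Zoloft differed by 0.17 in Nr4a1 (-0.15 to 0.49). For Arc, imipramine lay 0.92 below Prozac, with all 3 rats below the 3 Prozac rats (groups did not overlap for 17.3% of all probes) and an interval of -2.24 to 0.39. For Fos the intervals of the 3 pairs reached from -1.68 to 1.38, so that differences of over 2-fold between drugs lie within them.

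Several members varied widely between rats of a group. The SD of Arc over the 3 TBI+Zoloft rats was 1.73, larger than that of 99.7% of tested probes, and the SDs of Fos at 1.38, Fosl1 at 1.40 and Egr1 at 1.23 were larger than those of 99.2%, 99.2% and 98.7%. In TBI+Prozac the SD of Fos was 1.11, larger than that of 99.2% of probes, with replicate 1 at -0.59 and the others at -2.71 and -2.21. In TBI the SDs of Fos at 0.64 and Fosl1 at 0.56 were larger than those of 92.5% and 89.9% of probes. In TBI+Imipramine Fosl1 had an SD of 0.64, larger than that of 97.3% of probes, and Arc of 0.31 (85.8%), while those of Fos, Jun, Junb and Egr1 were between 0.08 and 0.17. Nr4a1 had an SD of 0.24 in TBI+Zoloft, against a median of 0.21 over all probes in that group.

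TBI+Zoloft replicate 3 carried the highest level of Fos, Fosb, Fosl1, Jun, Junb, Egr1, Egr2 and Arc among the 14 rats. Arc on this array was 3.41-fold above the next highest array of all, Fosl1 1.86-fold, Egr1 1.81-fold and Fos 1.55-fold. Egr2, which directs myelination in Schwann cells and responds to activity in neurons, was above background on 3 arrays only, at -6.13 on TBI replicate 2, -4.94 on TBI+Prozac replicate 1 and -2.39 on TBI+Zoloft replicate 3. All 10 Egr2 spots on the last array were above background, with a spread of 22.2% between them, and the array lay 5.86-fold above TBI+Prozac replicate 1. The other 11 arrays were between -7.57 and -6.22. Fosb was above background at -6.36 on TBI+Prozac replicate 3 and at -6.19 on TBI+Zoloft replicate 3, and Npas4, the most neuron-restricted member, only at -5.13 on TBI+Prozac replicate 1. These 3 members passed the filter in no group and were not tested.

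The same rat was highest for other activity-induced genes. Of the 67 other pathway genes, 37 had their highest level on this array, or 55.2%, against 12.4% of all probes. By list these were 13 of 16 other immediate early factors, 13 of 19 activity-induced effectors, 4 of 7 AP-1 and bZIP partners, 5 of 8 feedback inhibitors and 4 of 19 upstream kinases and factors, with Maff and Srf each in 2 lists. Inhba, a subunit of activin, was at 1.30 there and at most -1.40 on the other arrays, a 6.46-fold gap. Egr4 was at 1.04 and at most -1.58 elsewhere (6.16-fold), Nptx2, a secreted pentraxin that gathers AMPA receptors, at -0.25 and at most -2.45 (4.58-fold), and Bdnf, the neurotrophin, at -1.29 and at most -2.93 (3.1-fold). On this array the summed neuron markers were at 19.2, within the range of 12.6 to 19.6 of the TBI rats, and the summed choroid plexus markers at 1.77. The summed oligodendrocyte markers were at 50.1, the lowest of the TBI+Zoloft rats, against 81.5 to 96.4 in Sham and 49.9 to 81.2 in TBI, and 4 of 8 of these markers had their lowest level of the 14 arrays there. The summed hippocampal markers were at 7.91, against 9.78 to 11.4 in Sham and 6.96 to 7.91 in TBI+Zoloft. Nr4a1 on this array, at -0.71, was above both other TBI+Zoloft rats and below TBI+Prozac replicate 1, at -0.60, and both Sham rats. On TBI+Prozac replicate 1 the neuron sum was 19.5 and the choroid plexus sum 87.8. The part of cell makeup in these levels was not tested.

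**Figure D5:**
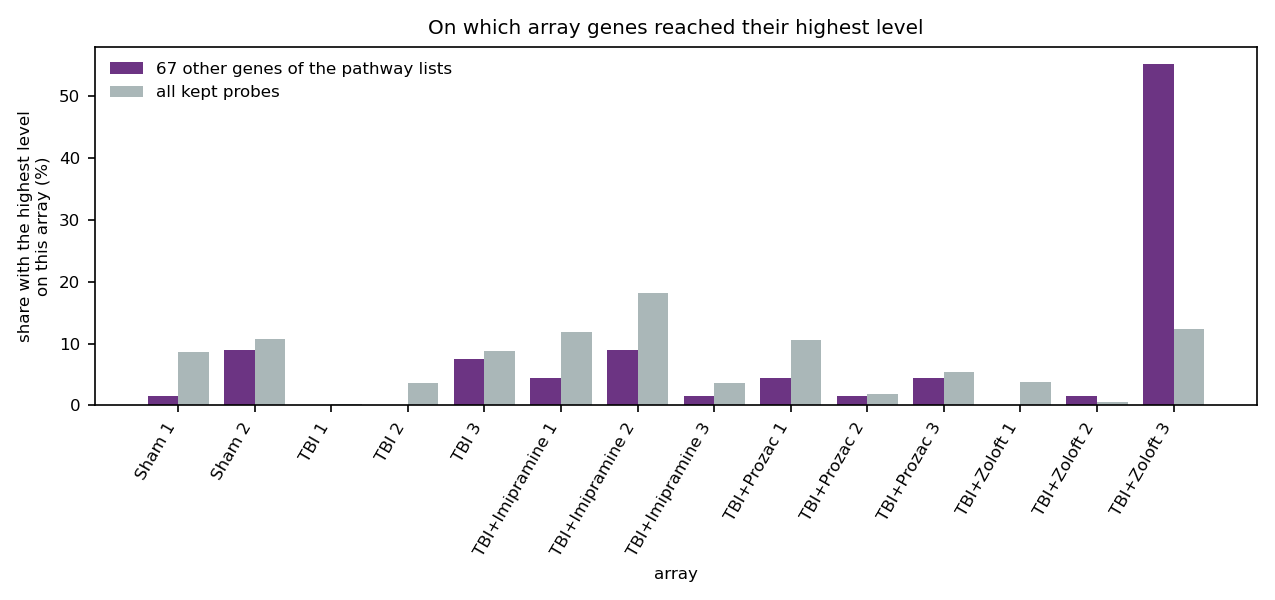
Share of genes (y axis, percent) that reached their highest level on each of the 14 arrays (x axis), for the 67 other genes of the pathway lists and for all 17251 kept probes with a value on every array. TBI+Zoloft replicate 3 holds 55.2% of the pathway genes and 12.4% of all probes.

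The genes most like the members over the 14 arrays, by Pearson correlation with the mean standardised profile of the 7 measured members, were Lbh (r = 0.98), Nfx1 (r = 0.94), C3h11orf96 (r = 0.93), Vgll4 (r = 0.93) and Pcgf3 (r = 0.92). All 5 were highest on TBI+Zoloft replicate 3, and without it the values were 0.95, 0.88, 0.83, 0.81 and 0.85. Among the members, Arc and Nr4a1 followed each other over the 12 injured rats (r = 0.69, and 0.78 without that array), while Fosl1 and Nr4a1 did not (r = 0.13 and -0.23).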

How the data were processed

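RNA of 14 hippocampi was hybridised to 1-colour Agilent rat arrays. The authors read each scan with Agilent Feature Extraction, and per the file headers each deposited scan gives linear intensity for every spot after background and trend removal, beside other columns of flags (0 or 1). A deposited table of scaled intensity values for these arrays served as an alternative. The miRNA arrays were not used here. Groups came from the sample titles, and p-values measure the spread between rats.

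Processed signals of a probe's spots without an outlier flag were averaged, divided by the array's 75th percentile over probes above background and put on a log2 scale. A probe counted as above background where over 0.5 of its spots did. No member spot was saturated. The number of arrays limits the precision. Differences were tested in 1 fit over the 5 groups with limma 3.58.1 in R 4.3.3, two-sided, with Benjamini-Hochberg adjustment over 17322 probes and a threshold of 0.05. The fit was tested on simulated data. Symbols came from the RefSeq table of assembly GRCr8, which named 18635 probes, and RefSeq promoters were given for 7 members. Alternatives were normexp, quantile and other scalings, other filters, the series table, slide and replicate blocks, leaving out each array and the methods' t-test. Named genes were all members, up to 5 pathway genes per direction and comparison with the largest difference past the threshold, and the 5 genes most like the members. A pathway gene that this rule names is not reported here. Myc and Elk1 in TBI against Sham, Nptx1, the 4 genes with the widest gaps on TBI+Zoloft replicate 3 and the cell markers that passed were named after their values were seen. The members and lists were chosen with earlier results of these data known. Replicate numbers did not pair the rats: same-numbered arrays had correlations of deviations from their group means between -0.23 and 0.23.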

Additional observations from a re-analysis of the deposited data

Results flagged for a closer look

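Levels above background in members that entered no comparison, and above both Sham arrays, where these genes were not above background, were found on 4 arrays. Egr2 was at -6.13 on TBI replicate 2, -4.94 on TBI+Prozac replicate 1 and -2.39 on TBI+Zoloft replicate 3. Fosb was at -6.36 on TBI+Prozac replicate 3 and -6.19 on TBI+Zoloft replicate 3. Npas4 was at -5.13 on TBI+Prozac replicate 1. All are log2 levels relative to the array's 75th percentile, and each rests on 1 rat.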

How the results depend on the processing

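Counts below are of members past the threshold. In TBI against Sham the count was 2, and it was 1 with normexp, 1 with probes above background on all arrays (which leaves out Fosl1), 0 and 4 with the methods' t-test after and without adjustment, and 6 with TBI+Zoloft replicate 3 and TBI+Prozac replicate 1 both left out, an alternative chosen after the data were seen. Leaving out 1 array gave 2 to 4, with 4 without TBI+Zoloft replicate 3. In TBI+Imipramine against Sham the count of 2 became 6 with only the groups compared, 1 with probes above background on all arrays, 1 and 7 with the methods' t-test, 6 without both arrays, and 1 to 4 without 1 array. Calls among all probes also moved over the alternatives, from 0 to 4467 in TBI and from 1111 to 5694 in TBI+Imipramine against Sham. Member counts are not set against these per alternative. In TBI+Prozac against Sham the count of 1 became 0 with normexp, with probes above background on all arrays and with the adjusted t-test. In TBI+Zoloft against Sham the count of 1 became 0 with each of these and with only the groups compared, and 3 without both arrays. Against TBI the counts of 0 became 1, 3 and 1 with the unadjusted t-test for TBI+Imipramine, TBI+Prozac and TBI+Zoloft, and 1 for TBI+Imipramine without both arrays. The causes were not tested. The replicate block moved none of these counts, with 2, 0, 0, 0, 2, 1 and 1 in the order TBI, the 3 drugs against TBI and the 3 drugs against Sham. Quantile normalization, the other percentile and the series table kept every one of these counts. Slide as a block kept them too, but it cannot separate slide from injury, because both Sham arrays lie alone on slide 3. Against TBI the block rests on TBI+Prozac replicate 1, the only drug array on the TBI slide. Among all probes, quantile normalization, the other percentile and the series table gave 4392 to 4467 calls in TBI against Sham in place of 2879. They gave 50 to 58 in TBI+Imipramine against TBI in place of 494, and 803 to 824 in TBI+Zoloft against TBI in place of 239. Slide as a block gave 2 calls in each of these drug comparisons. Each member has a single probe, so that averaging the probes of a gene was not run. No member's called difference changed sign. Fosl1 in Sham, Egr1 in TBI and the levels of Fosb, Egr2 and Npas4 lie near background, which limits their folds.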
